A study of Mus musculus with 8 samples.

Results

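The genes described here are 8 transcription factors that shape myeloid cells and macrophages: Maf, Spi1, Cebpa, Cebpb, Irf5, Irf8, Klf4 and Nr1h3. They were chosen by name, and every probe set (a group of short probes that together measure 1 transcript) annotated to one of them alone was taken. That gave 12 probe sets of the 22626 that are not controls. Cebpb, Irf5, Irf8 and Klf4 have 2 probe sets each, and the other factors have 1 each. For a factor with 2, the probe set with the higher mean over all 8 arrays is called the leading probe set and stands for the gene in counts. The other is given beside it.

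RNA was measured on 8 Affymetrix arrays in cells sorted for CD45, the surface protein of blood-derived cells, together with Sca1, which marks stem and progenitor cells and also some mature cells of the mouse. The mice were C57BL/6 and 6 to 8 weeks old, and the 4 groups hold 2 arrays each. They are muscle damaged by cardiotoxin (a venom component that kills muscle fibres) in mice given a bone marrow transplant (transplanted injured muscle), the same injury in mice without a transplant (injured muscle), muscle without injury (uninjured muscle), and bone marrow. Time after injury, the origin of the transplanted marrow, whether the sorted cells in transplanted mice were of donor or host origin, and whether the 2 arrays of a group hold separate animals are points not given in the sources used here.

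PU.1, the product of Spi1, and the C/EBP proteins are the factors that turn blood progenitors towards granulocytes and monocytes. Irf8 favours monocytes and dendritic cells over granulocytes, Irf5 drives inflammatory cytokine genes in macrophages, and Klf4 promotes monocyte differentiation. Maf acts late in macrophage maturation, and Nr1h3 encodes LXR alpha, a nuclear receptor that senses oxidised cholesterol and switches on lipid export genes. In injured muscle, monocytes enter from the blood and become macrophages that clear debris and then accompany the growth of new fibres.

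The transcript of CD45, Ptprc, had intensities from 4924 to 6996 on the 8 arrays, and no probe set is annotated here to Ly6a, which encodes Sca1. The 4 arrays of injured muscle stood apart from the other 4 in RNA quality. On arrays of this kind, control probes near the 3' and 5' ends of Gapdh and beta-actin give a ratio that grows as RNA is degraded or incompletely copied. The Gapdh ratio was 0.882 and 0.868 in transplanted injured muscle and 0.833 and 0.808 in injured muscle, against 46.9 and 13.6 in uninjured muscle and 24.4 and 10.7 in bone marrow. The beta-actin ratio ran from 1.18 to 1.23 on the injured arrays, from 10.1 to 19 in uninjured muscle, and from 5.68 to 5.75 in bone marrow. RNA quality and injury therefore cannot be told apart in any comparison of an injured group with uninjured muscle or bone marrow. The comparison of transplanted with untransplanted injured muscle, and that of uninjured muscle with bone marrow, each lie within 1 side of this split. Uninjured muscle and bone marrow still differed in the beta-actin ratio, which was higher on both uninjured arrays than on both marrow arrays. RNA quality and tissue therefore cannot be told apart in that comparison either. Replicate arrays correlated across probe sets at r = 0.957 in transplanted injured muscle, 0.956 in injured muscle, 0.837 in uninjured muscle and 0.929 in bone marrow.

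Cebpa and Nr1h3 were higher in both injured groups than in uninjured muscle and bone marrow. On its leading probe set Irf8 was lower in all muscle groups than in bone marrow. The other Irf8 probe set passed in no comparison, and with both averaged the calls of the injured groups were lost. Cebpb was higher in both injured groups than in bone marrow. Irf5 was higher in transplanted injured than in uninjured muscle on its leading probe set, while its other probe set passed in no comparison. Maf was dim on every array and entered the tests only through the arrays of injured muscle, where it was highest, so its values are a description. Spi1 and Klf4 passed the test in none of the 6 comparisons, and no factor passed it between transplanted and untransplanted injured muscle. In bulk RNA of sorted cells, fewer cells of a type and less RNA per cell cannot be told apart. A call means an adjusted p under 0.05 in a limma fit of log2(intensity + 4) over all 8 arrays, with Benjamini-Hochberg adjustment over the 16289 probe sets tested. All 12 probe sets of the factors were among those tested, and the counts below are over the 7 factors other than Maf.

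In injured against uninjured muscle, 2 of the 7 factors, Cebpa and Nr1h3, were higher and 0 lower, where 12.1% of all probe sets were higher and 13.9% lower. In transplanted injured against uninjured muscle, 3 of 7 were higher and 0 lower, against 13.9% and 18.5% of all probe sets. Both comparisons share the uninjured muscle arrays. Against bone marrow, 3 factors were higher and 1 lower in injured muscle, where 15.5% of all probe sets were higher and 15.5% lower. The same counts were found in transplanted injured muscle, where 15.1% were higher and 17.4% lower, and these comparisons share the bone marrow arrays. In uninjured muscle against bone marrow, 0 factors were higher and 1 was lower, where 4.83% of all probe sets were higher and 1.25% lower. In transplanted against untransplanted injured muscle, 0 of the 7, and not Maf either, were called, where 0.0246% of all probe sets were higher and 0.227% lower. With every array centred on its median, the array-wide split in transplanted injured against uninjured muscle turned to 3011 higher and 2096 lower, against 2268 higher and 3015 lower as scaled by the authors. For injured against uninjured muscle the split was 2295 higher and 1762 lower when centred, against 1973 and 2262, and for uninjured muscle against bone marrow it was 669 and 295, against 787 and 204.

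The median log2 difference of the 7 factors was 1.51 in injured and 1.80 in transplanted injured against uninjured muscle, beside medians of -0.14 and -0.19 over all probe sets tested. Against bone marrow it was 1.92 in injured muscle, 2.01 in transplanted injured muscle and 0.52 in uninjured muscle, beside -0.15, -0.19 and -0.03 over all. In transplanted against untransplanted injured muscle it was 0.03, beside 0.005 over all.

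**Figure D1:**
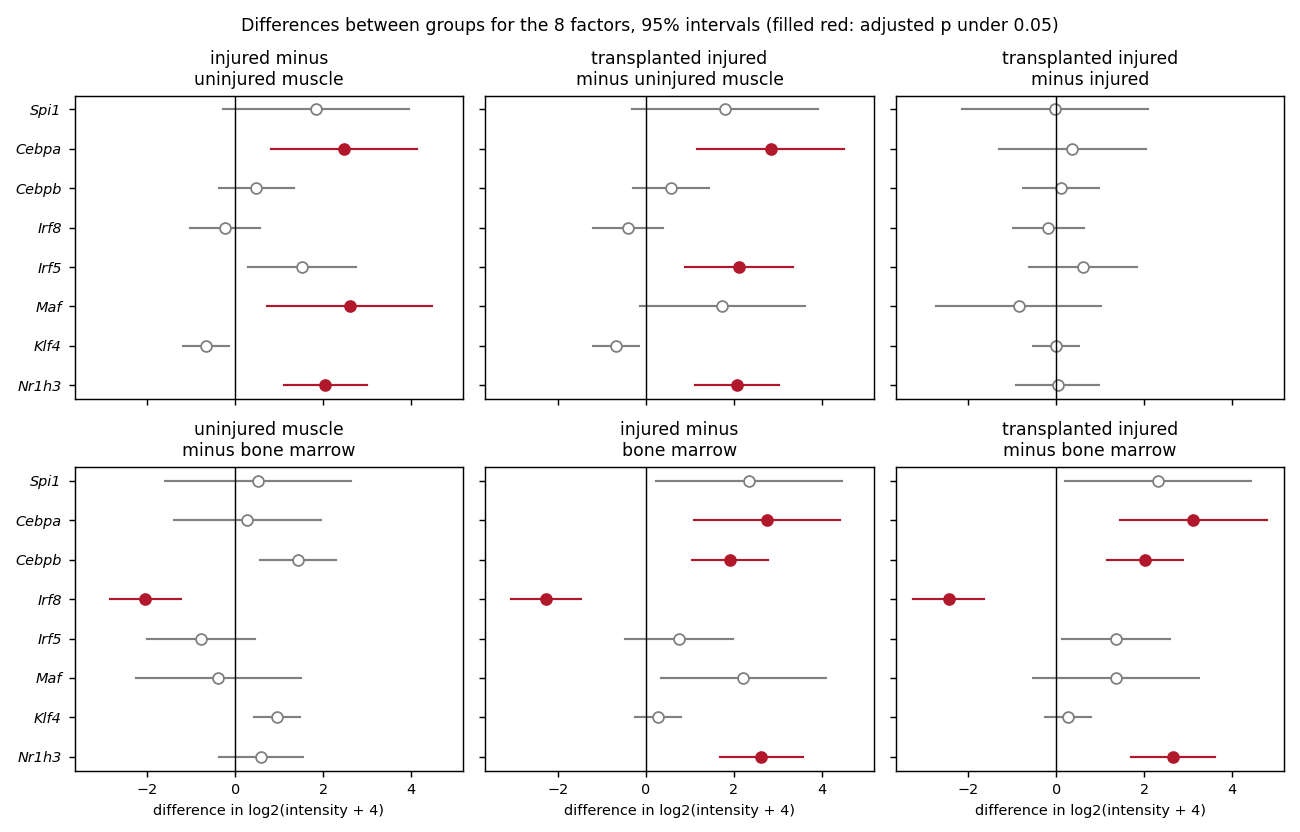
Each panel plots, for the leading probe set of the 8 factors, the difference in log2(intensity + 4) between 2 groups on the x axis, with the 95% interval of the limma fit, and filled red points passed an adjusted p of 0.05. Cebpa and Nr1h3 are red in the 4 panels that set an injured group against uninjured muscle or bone marrow, Irf8 lies left of 0 in the 3 panels against bone marrow, and no point is red between the injured groups. Maf, which entered the tests only through injured muscle, is also red in injured against uninjured muscle, and its points are a description.

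Promoter sequences are shown for Cebpa, Cebpb and Nr1h3, which were higher than bone marrow in both injured groups, and for Irf8, which was lower on its leading probe set. The start regions of factors that differed in opposite directions can thus be read side by side. Each covers 250 bases before to 50 bases after a RefSeq gene start on build GRCm38.p6. The sequences run 5' to 3' on the gene's strand, and 6 of the 8 factors had such a window. Capitals mark matches, on either strand, to 5 motifs. The TATA box was searched as TATAAA. The CCAAT box was searched by those letters. The GC box, bound by Sp and Klf proteins, was searched as GGGCGG. The core bound by PU.1 was searched as GAGGAA. The C/EBP site was searched as TTGCNNAA. The Cebpa window is chr7:35119043-35119342 on the plus strand, Cebpb is chr2:167688665-167688964 on the plus strand, Irf8 is chr8:120736108-120736407 on the plus strand, and Nr1h3 is chr2:91194986-91195285 on the minus strand, the second of 2 overlapping windows.
Cebpa: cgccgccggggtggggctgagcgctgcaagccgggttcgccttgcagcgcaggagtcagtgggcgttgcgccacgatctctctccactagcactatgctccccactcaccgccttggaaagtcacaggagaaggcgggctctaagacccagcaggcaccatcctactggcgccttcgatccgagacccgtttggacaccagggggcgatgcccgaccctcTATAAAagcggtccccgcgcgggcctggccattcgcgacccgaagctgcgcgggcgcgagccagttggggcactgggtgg
Cebpb: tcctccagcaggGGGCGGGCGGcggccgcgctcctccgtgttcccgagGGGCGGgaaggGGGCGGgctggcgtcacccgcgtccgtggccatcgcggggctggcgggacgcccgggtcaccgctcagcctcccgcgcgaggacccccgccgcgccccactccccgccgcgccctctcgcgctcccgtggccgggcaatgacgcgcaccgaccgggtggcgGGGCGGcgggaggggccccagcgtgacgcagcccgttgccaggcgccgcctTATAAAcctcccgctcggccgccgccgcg
Irf8: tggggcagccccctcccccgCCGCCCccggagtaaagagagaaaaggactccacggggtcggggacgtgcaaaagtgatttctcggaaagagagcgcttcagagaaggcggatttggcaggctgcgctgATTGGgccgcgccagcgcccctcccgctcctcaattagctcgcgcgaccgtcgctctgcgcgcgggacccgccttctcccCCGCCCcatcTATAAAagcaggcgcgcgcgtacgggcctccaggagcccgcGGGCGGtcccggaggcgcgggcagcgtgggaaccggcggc
Nr1h3: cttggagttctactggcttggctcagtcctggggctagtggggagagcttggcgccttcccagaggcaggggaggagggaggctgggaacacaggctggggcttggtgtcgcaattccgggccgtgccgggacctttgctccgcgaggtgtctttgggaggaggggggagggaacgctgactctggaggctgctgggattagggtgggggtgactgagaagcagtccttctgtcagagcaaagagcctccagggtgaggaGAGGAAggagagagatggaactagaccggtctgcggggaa

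The Cebpa window holds 1 TATA box match, 30 bases before the start, and Irf8 holds 1 at 31 bases before it. Cebpb has its TATA box match 21 bases after the annotated start and 5 GC box matches, and Irf8 has 3 GC box matches and 1 CCAAT box match. The Nr1h3 window shown has 1 PU.1 core match and no other, and the other Nr1h3 window, which is not printed, has 0 matches to any of the 5 motifs. Irf8 also has a second window, not printed, with 0 matches. Of 32851 mouse windows of the same length, 13.6% hold a TATA box match, 37.4% a CCAAT box, 35.7% a GC box, 28.3% a PU.1 core and 10.8% a C/EBP site. A match describes letters only, and the C/EBP site was matched in no window of the 6 factors.

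Spi1, the master factor of the myeloid lineage, was bright on the arrays of injured muscle and uneven elsewhere. Its intensity was 1259 and 1236 in transplanted injured muscle, 1411 and 1158 in injured muscle, 117 and 1070 in uninjured muscle, and 141.1 and 431.4 in bone marrow. All 4 injured arrays exceeded all 4 others, and within uninjured muscle array 2 was 9.14 times array 1, outside the central 90% of such ratios over all probe sets (0.347 to 4.64). The log2 difference was 1.83 (SE 0.92) in injured and 1.80 (SE 0.92) in transplanted injured against uninjured muscle, with adjusted limma p of 0.168 and 0.162. Against bone marrow it was 2.35 in injured and 2.32 in transplanted injured muscle, with adjusted limma p of 0.0857 and 0.0868. Neither passed. Of the 21 alternatives, Spi1 was called against uninjured muscle only without uninjured array 2 (adjusted limma p 0.00263 in injured and 0.00224 in transplanted injured muscle). It was called against bone marrow without either uninjured array (0.00393 to 0.00418 over both injured groups), with array weights (0.00966 in injured and 0.0107 in transplanted injured muscle) and on the 4 arrays compared alone (0.0122 and 0.0113). Uninjured array 1 and bone marrow array 1 had the highest Gapdh 3' to 5' ratios. Without both, the log2 difference of Spi1 from bone marrow was 1.56 in injured, 1.52 in transplanted injured and 1.30 in uninjured muscle. Uninjured muscle and bone marrow overlapped, with a log2 difference of 0.52 and an adjusted limma p of 0.819.

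Cebpa, which starts the granulocyte and monocyte programme in progenitors, had the same shape with a wider gap. Intensities were 1110 and 1122 in transplanted injured muscle, 933.9 and 806.2 in injured muscle, 64.11 and 356.6 in uninjured muscle, and 81.38 and 191.4 in bone marrow. The injured arrays lay above every uninjured and marrow array. The transplanted arrays lay above the untransplanted ones, a difference that did not pass (adjusted limma p 0.999). Relative to uninjured muscle Cebpa was 7.14-fold higher in transplanted injured muscle (log2 2.84, SE 0.72, adjusted limma p 0.0206) and 5.56-fold higher in injured muscle (log2 2.48, SE 0.72, adjusted limma p 0.0391). Relative to bone marrow it was 8.67-fold higher in transplanted injured muscle (adjusted limma p 0.0135) and 6.75-fold higher in injured muscle (adjusted limma p 0.0227). The levels in uninjured muscle and bone marrow did not differ beyond their spread (adjusted limma p 0.881). The call of injured against uninjured muscle was lost without bone marrow array 1 or 2, uninjured array 1, or any injured or transplanted array (adjusted limma p 0.0502 to 0.173, log2 1.27 to 2.58). It was also lost with no intensity trend (0.0532) and on the 4 arrays alone (0.104), as was the transplanted call on its 4 arrays alone (0.0678). Against bone marrow the injured muscle call was lost without bone marrow array 1 or either injured array (0.0939 to 0.136). The transplanted call was lost without bone marrow array 1 or either transplanted array (0.0734 to 0.0906), and against uninjured muscle without either transplanted array (0.0962 and 0.0965).

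Cebpb, the C/EBP family member induced by inflammatory signals and growth factors in macrophages, reached the level of the injured groups on 1 of the 2 uninjured arrays. On the leading probe set it had 2105 and 2211 in transplanted injured muscle, 2066 and 1970 in injured muscle, 945.1 and 2200 in uninjured muscle, and 503.7 and 560.3 in bone marrow. Bone marrow was lower than every muscle array. Uninjured array 1 lay below every injured array, and array 2 above all of them but transplanted array 2. Cebpb was 4.04-fold higher in transplanted injured muscle (log2 2.01, SE 0.38, adjusted limma p 0.00545) and 3.78-fold higher in injured muscle (log2 1.92, SE 0.38, adjusted limma p 0.00706) than in bone marrow. Uninjured muscle was 2.70-fold above bone marrow without passing the test (log2 1.43, adjusted limma p 0.0689), and it was called without uninjured array 1 (0.00123) or array 2 (0.0347). The injured muscle call against bone marrow was lost without injured array 1 (0.0559). Against uninjured muscle neither injured group passed (adjusted limma p 0.26 in transplanted injured and 0.361 in injured muscle). Both passed without uninjured array 2 (0.00402 and 0.00692) and with the log2 values of both probe sets averaged (0.026 and 0.049).

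The other Cebpb probe set gave the same order of group means with a wider gap between the injured groups and uninjured muscle. It had 1194 and 1261 in transplanted injured muscle, 981.9 and 837 in injured muscle, 25.46 and 220.5 in uninjured muscle, and 31.46 and 64.36 in bone marrow. Here uninjured muscle was far below the injured groups, and the difference passed the test in transplanted injured (15.1-fold, adjusted limma p 0.0098) and injured muscle (11.2-fold, adjusted limma p 0.0186). The leading probe set showed 1.49-fold and 1.40-fold in the same comparisons.

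**Figure D2:**
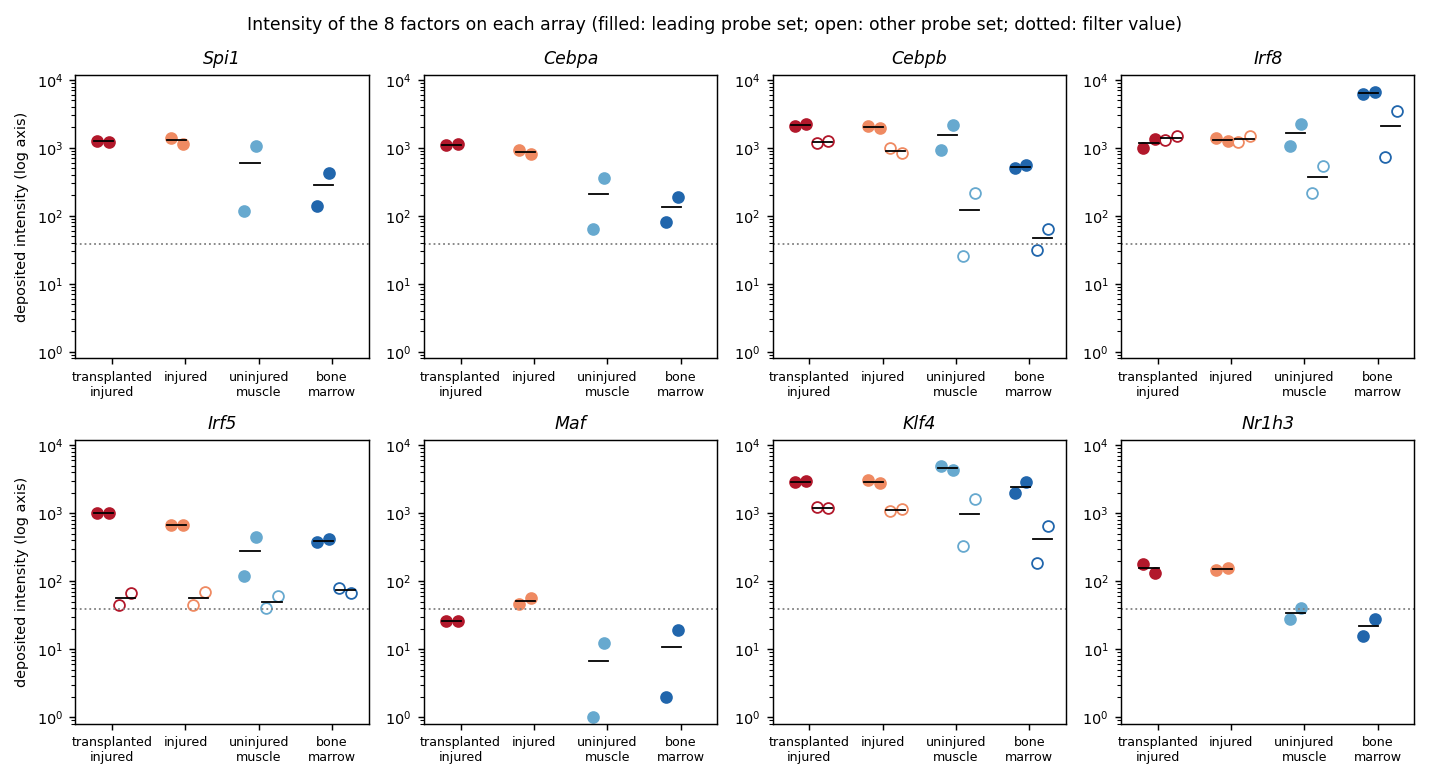
Each panel plots the deposited intensity of 1 factor on a log axis for the 2 arrays of each group, with filled points for the leading probe set, open points for the other and bars for the group mean. The dotted line is the filter value of 38.4. Spi1, Cebpa and Nr1h3 show both injured groups above uninjured muscle and bone marrow, and Irf8 shows bone marrow highest on its leading probe set.

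Irf8, needed for monocyte and dendritic cell development and also expressed in B cells, was highest in bone marrow. The leading probe set had 1004 and 1356 in transplanted injured muscle, 1401 and 1251 in injured muscle, 1079 and 2232 in uninjured muscle, and 6280 and 6537 in bone marrow. The 2 bone marrow arrays exceeded all 6 muscle arrays, which overlapped one another. Compared with bone marrow Irf8 fell by 2.45 in transplanted injured muscle (SE 0.35, adjusted limma p 0.0017), by 2.27 in injured muscle (SE 0.35, adjusted limma p 0.0025) and by 2.04 in uninjured muscle (SE 0.35, adjusted limma p 0.0117) on the log2 scale. These are 5.47-fold, 4.83-fold and 4.12-fold lower intensities. Among the muscle groups the log2 difference was -0.41 in transplanted injured and -0.23 in injured against uninjured muscle, and neither passed (adjusted limma p 0.386 and 0.645). Without uninjured array 1 the difference of transplanted injured from uninjured muscle was called (-0.93, adjusted limma p 0.0229). The call of uninjured muscle against bone marrow was lost without bone marrow array 1 (0.0774) or array 2 (0.0815) and on the 4 arrays alone (0.0768).

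The other Irf8 probe set had 1300 and 1488 in transplanted injured muscle, 1225 and 1500 in injured muscle, 216.5 and 537.4 in uninjured muscle, and 734.5 and 3483 in bone marrow. The marrow arrays lay on both sides of the injured ones, and no comparison passed on this probe set. Its log2 difference of injured muscle from bone marrow was -0.24 (adjusted limma p 0.819), where the leading probe set gave -2.27. When the log2 values of both probe sets were averaged, the Irf8 difference from bone marrow was -1.33 in transplanted injured and -1.26 in injured muscle, with adjusted limma p of 0.0672 and 0.0815.

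The B cell markers summed highest in bone marrow and lower in injured than in uninjured muscle. The 8 measured genes of the list of 9 summed to 185.1 and 150.7 in transplanted injured muscle, 193.4 and 238 in injured muscle, 3106 and 4283 in uninjured muscle, and 12950 and 15790 in bone marrow. In each injured group 7 of the 8 were under the filter value on both arrays, and 2 of 8 were in uninjured muscle and 1 of 8 in bone marrow. The dendritic markers, 7 measured of 9, summed to 691 and 619.1 in transplanted injured muscle, 1640 and 1750 in injured muscle, 1419 and 2221 in uninjured muscle, and 2222 and 2607 in bone marrow. The part of the B cell and dendritic markers in the Irf8 difference was not tested.

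Irf5, a driver of inflammatory macrophage genes downstream of Toll-like receptors, was highest in transplanted injured muscle on its leading probe set. The leading probe set had 1022 and 1023 in transplanted injured muscle, 670.5 and 661 in injured muscle, 119 and 443.2 in uninjured muscle, and 377.6 and 414.4 in bone marrow. Replicates of the injured groups were nearly equal, and all 4 arrays exceeded uninjured muscle and bone marrow. The transplanted arrays exceeded the untransplanted ones, a difference that did not pass (adjusted limma p 0.947). Irf5 was 4.38-fold higher in transplanted injured than in uninjured muscle (log2 2.13, SE 0.53, adjusted limma p 0.0191), a call lost without transplanted array 1 (0.0951) or array 2 (0.0944) and on the 4 arrays alone (0.0794). In injured against uninjured muscle the log2 difference was 1.51 (SE 0.53, adjusted limma p 0.0696), and it passed without uninjured array 2 (0.000407), with array weights (0.0491) and with every array centred on its median (0.0435). Against bone marrow the log2 difference was 1.36 in transplanted injured and 0.75 in injured muscle, with adjusted limma p of 0.0846 and 0.317. Both passed without uninjured array 1 or array 2 (adjusted limma p 0.0011 to 0.0206), and the transplanted difference also with array weights (0.0111) and on the 4 arrays alone (0.00585). Uninjured muscle differed from bone marrow by -0.77 (adjusted limma p 0.488), and by -1.70 without uninjured array 2 (0.00291).

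The second Irf5 probe set was dim and flat. Its intensities were 44.23 and 67.01 in transplanted injured muscle, 44.8 and 69.53 in injured muscle, 40.14 and 59.94 in uninjured muscle, and 80.07 and 67.67 in bone marrow. It passed in none of the 6 comparisons, and the mean of both probe sets left transplanted injured against uninjured muscle without a call (log2 1.13, adjusted limma p 0.0728).

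Nr1h3, the lipid sensor LXR alpha, was dim but even, with a clear gap between groups. Its intensity was 178 and 131.1 in transplanted injured muscle, 143.9 and 156.3 in injured muscle, 27.63 and 39.72 in uninjured muscle, and 15.34 and 27.99 in bone marrow. The lowest injured array, at 131.1, stood above the highest of the other arrays, at 39.72, and both marrow arrays lay under the filter value of 38.4. The 5 arrays at or above that value were the 4 injured ones and uninjured array 2, and its 4 calls were also made with no filter. Relative to uninjured muscle Nr1h3 was 4.22-fold higher in transplanted injured muscle (log2 2.08, SE 0.41, adjusted limma p 0.00799) and 4.14-fold higher in injured muscle (log2 2.05, SE 0.41, adjusted limma p 0.0108). Set against the filter value, it was at least 3.74-fold higher in transplanted injured muscle (adjusted limma p 0.00254) and at least 3.64-fold higher in injured muscle (adjusted limma p 0.00281) than in bone marrow. The calls against bone marrow held in all 21 alternatives. The call of injured against uninjured muscle was lost without injured array 1 (0.0645) or array 2 (0.0703), and that of transplanted injured muscle without transplanted array 1 (0.0631). Uninjured muscle and bone marrow overlapped, with an adjusted limma p of 0.502.

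Maf, a factor of mature macrophages, was dim on every array. Its single probe set had 26.33 and 26 in transplanted injured muscle, 45.98 and 55.82 in injured muscle, 1 and 12.27 in uninjured muscle, and 1.963 and 19.2 in bone marrow. The 2 arrays at or above the filter value of 38.4 were those of injured muscle, so the probe set entered the tests through that group. Its p-values are therefore given as a description and are not used as calls. Measured means were 50.9 ± 6.96 in injured and 6.64 ± 7.97 in uninjured muscle (SD, n = 2 each), a log2 difference of 2.60 (SE 0.82, adjusted limma p 0.0495). Set against the filter value this is at least 1.3-fold. The adjusted p was above 0.05 without uninjured array 1 (0.175), injured array 1 (0.151) or array 2 (0.173), and transplanted array 1 (0.0744) or array 2 (0.0743). It was also above 0.05 with no filter (0.0512), a pseudocount of 1 (0.0733), array weights (0.108), a gene's probe sets averaged (0.0553), the 4 arrays alone (0.0783), and uninjured array 1 and bone marrow array 1 both left out (0.0689). In injured muscle against bone marrow Maf had a log2 difference of 2.22 (adjusted limma p 0.0728). In transplanted injured muscle the differences from uninjured muscle (1.74) and from bone marrow (1.36) did not pass, with adjusted limma p of 0.134 and 0.235.

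Klf4, a zinc finger factor of monocytes that is also induced as an immediate early gene, was highest in uninjured muscle on its leading probe set. The leading probe set had 2855 and 2936 in transplanted injured muscle, 3071 and 2742 in injured muscle, 4880 and 4389 in uninjured muscle, and 1997 and 2875 in bone marrow. Both uninjured arrays exceeded the other 6, and the injured groups overlapped each other and bone marrow. The log2 difference was 0.95 in uninjured muscle against bone marrow (SE 0.23, adjusted limma p 0.0501), -0.67 in injured against uninjured muscle (0.0616) and -0.68 in transplanted injured against uninjured muscle (0.0531). None passed. Each lay close to the threshold, and all 3 were called without uninjured array 2 (adjusted limma p 0.0253, 0.0494 and 0.0447). The difference from bone marrow was also called without bone marrow array 2 (0.0406), and those of the injured groups without bone marrow array 1 or array 2 (0.0316 to 0.0388). With quantile normalization all 3 were called (0.0369, 0.0239 and 0.0172), and with cyclic loess those of injured (0.0162) and transplanted injured muscle (0.0146).

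The second Klf4 probe set did not show the same order, with 1214 and 1186 in transplanted injured muscle, 1064 and 1136 in injured muscle, 327.1 and 1617 in uninjured muscle, and 187.7 and 648.7 in bone marrow. Uninjured muscle held both the highest and the second lowest value, and the injured arrays lay between. None of the 6 comparisons passed on it, and the log2 difference of injured from uninjured muscle was 0.59, against -0.67 on the leading probe set. With the log2 values of both probe sets averaged, Klf4 was called against uninjured muscle in neither injured group. Its log2 difference there was -0.04 in injured and 0.02 in transplanted injured muscle.

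The ratio of the leading to the other probe set of a gene differed between the injured arrays and the rest. For Cebpb it was 1.76 and 1.75 in transplanted injured muscle, 2.1 and 2.35 in injured muscle, 37.1 and 9.97 in uninjured muscle, and 16 and 8.7 in bone marrow. For Irf8 it was 0.773 and 0.911, then 1.14 and 0.834, in the transplanted and untransplanted injured groups, 4.98 and 4.15 in uninjured muscle, and 8.55 and 1.88 in bone marrow. Cebpb and Irf8 thus had every ratio higher on the uninjured and marrow arrays than on the injured ones, the side on which the Gapdh and beta-actin controls were also high. The Klf4 ratio was 2.35 and 2.48 in transplanted injured muscle, 2.89 and 2.41 in injured muscle, 14.9 and 2.71 in uninjured muscle, and 10.6 and 4.43 in bone marrow, so uninjured array 2 lay within the injured range. Irf5 ran the other way, with 23.1 and 15.3 in transplanted injured muscle, 15 and 9.51 in injured muscle, 2.96 and 7.39 in uninjured muscle, and 4.72 and 6.12 in bone marrow. Where on the transcripts these probe sets lie is not given in the sources used here, and the part of RNA quality in the ratios was not tested.

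**Figure D3:**
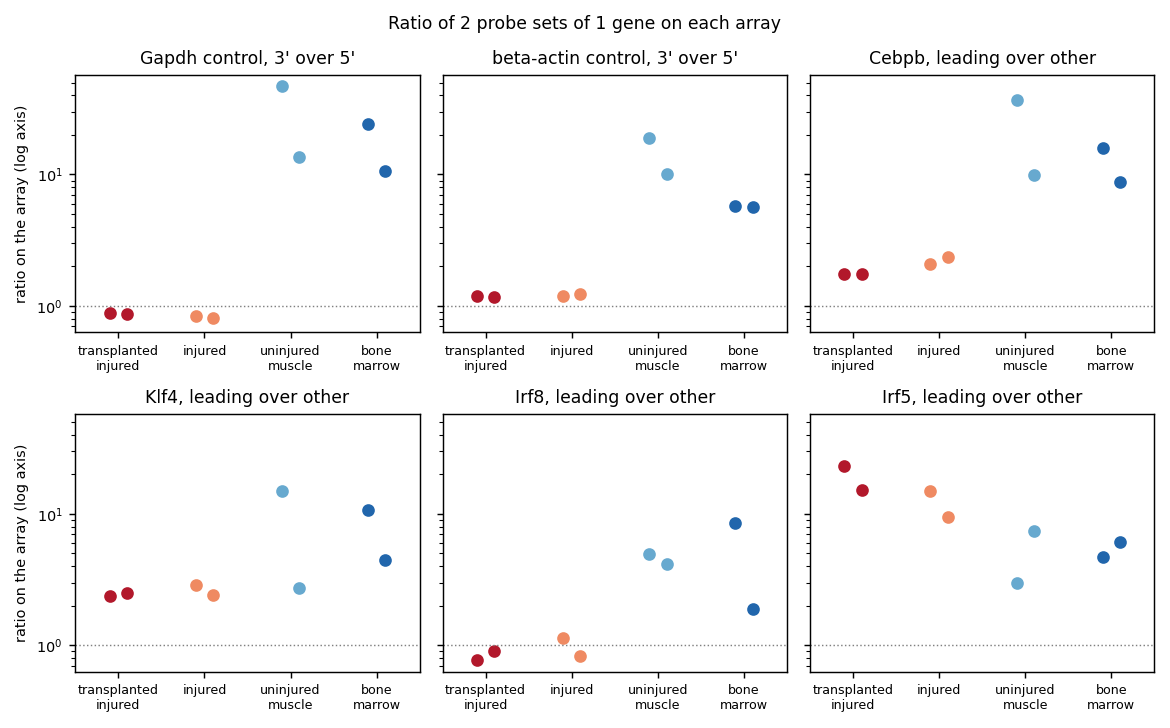
Each panel plots on a log axis, for the 2 arrays of each group, the ratio of 2 probe sets of 1 gene: 3' over 5' for the Gapdh and beta-actin controls, and leading over other for Cebpb, Klf4, Irf8 and Irf5. The controls, Cebpb and Irf8 are higher on all uninjured and marrow arrays than on the injured arrays, Klf4 is so on 3 of the 4, and Irf5 is lower.

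Transplantation made no difference that passed the test in any of the 8 factors, and the intervals were wide. The log2 difference of transplanted from untransplanted injured muscle, with its 95% interval, was 0.62 (-0.61 to 1.84) for Irf5, 0.36 (-1.31 to 2.03) for Cebpa and 0.10 (-0.77 to 0.96) for Cebpb. It was 0.03 (-0.93 to 0.98) for Nr1h3, -0.04 (-2.15 to 2.08) for Spi1 and -0.18 (-0.98 to 0.62) for Irf8. It was 0.00 (-0.53 to 0.52) for Klf4, the narrowest interval, and -0.86 (-2.74 to 1.02) for Maf, the second widest after Spi1. Irf5, Cebpa and Cebpb had both transplanted arrays above both untransplanted ones, and Maf had both below. The share of all probe sets that lie apart in this way was not computed, so this separation is no result about the factors. At an unadjusted p under 0.05, 1425 of all probe sets tested differed between the injured groups, and 0 of the 8 factors did. In a fit on the 4 injured arrays alone, Irf5 was called higher in transplanted injured muscle (adjusted limma p 0.0206), where 6.91% of all probe sets were called.

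For each factor, the 2 genes whose profile over the 8 arrays lay nearest were taken from 9498 candidates. Nearness is the root mean square difference of log2(intensity + 4) after each profile was centred on its own mean, and a factor's own SD over the arrays is given for scale. Cebpb lay nearest to Dpp7, a lysosomal dipeptidase (0.103), and Cst3, the protease inhibitor cystatin C (0.153), beside a profile SD of 0.86. Nr1h3 lay nearest to Loxl3 (0.149) and Commd1 (0.23), with an SD of 1.22. Cebpa lay nearest to Pirb, an inhibitory receptor of myeloid cells (0.213), and Ilrun (0.279), with an SD of 1.56. Klf4 lay nearest to Tspan3 (0.19) and Egr1, an immediate early factor (0.193), but its own SD was 0.38, so many flat profiles lie close. Irf8 had Capn5 (0.177) and Sirt3 (0.194), Irf5 had Gps2 (0.209) and Snf8 (0.215), Spi1 had Prrg2 (0.203) and Crat (0.331), and Maf had P3h1 and Gtf2ird1 (0.333 each). The 8 arrays share the split in RNA quality, and a near profile describes these arrays only.

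Among 40 other factors of myeloid cells, 35 were measured and tested. In injured against uninjured muscle 7 were higher and 5 lower, and in transplanted injured against uninjured muscle 9 were higher and 7 lower, with list medians of 0.10 and -0.19 on the log2 scale beside -0.14 and -0.19 over all probe sets. Over all probe sets 12.1% were higher and 13.9% lower in injured, and 13.9% higher and 18.5% lower in transplanted injured muscle, so the lower calls of the list were near the background. Id2, an inhibitor of E proteins, was higher in injured muscle (970 ± 190 against 143 ± 87.4 in uninjured muscle, SD, n = 2 each, adjusted limma p 0.00445), as was Stat3 (adjusted limma p 0.00835). In transplanted injured muscle the rises with the smallest p were those of Id2 (adjusted limma p 0.00202) and Irf7 (0.00608). Gfi1, a transcriptional repressor needed for granulocyte development that opposes PU.1, was lower in both (at least 2.8-fold, adjusted limma p 0.00133 in injured and 0.00117 in transplanted injured muscle). Klf6 fell in injured muscle (1508 ± 11.3 against 3637 ± 29.1 in uninjured muscle, SD, n = 2 each) and Cebpd in transplanted injured muscle (252.9 ± 13.6 against 1609 ± 661 in uninjured muscle, SD, n = 2 each). Calls over all probe sets also moved when arrays were left out. Counts of this and the later lists without an array are therefore no result about a list. The range of the share over all probe sets is given in the closing section. Without uninjured array 1 and bone marrow array 1, the counts were 12 higher and 9 lower in injured and 11 higher and 15 lower in transplanted injured muscle. When 1 array was left out, 1 was higher in injured muscle without either injured array, and 3 and 2 were lower without injured array 1 and array 2. In transplanted injured muscle 2 were higher without transplanted array 1, 4 without transplanted array 2 or either injured array, and 4 were lower without transplanted array 2.

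Against bone marrow, 15 of the 35 other factors were higher and 5 lower in injured muscle, 13 higher and 4 lower in transplanted injured muscle, and 9 higher and 0 lower in uninjured muscle. Over all probe sets 15.5% were higher and 15.5% lower in injured, 15.1% and 17.4% in transplanted injured, and 4.83% and 1.25% in uninjured muscle. The lower counts of the list were not above these shares. The higher count fell to 7 in transplanted injured muscle without either transplanted array and to 4 in uninjured muscle without any 1 of the 4 injured arrays. The lower count was 3 in injured muscle without injured array 1 or bone marrow array 1, and 3 in uninjured muscle without uninjured array 2. Mitf, a factor of osteoclasts, mast cells and macrophages, was 14.6-fold higher in transplanted injured and 9.85-fold higher in injured muscle. Nfil3 was 13.8-fold and 15.9-fold higher in the same order. Spib, a relative of PU.1 found in B cells and plasmacytoid dendritic cells, fell in transplanted injured (34.6 ± 32.9) and injured muscle (73.2 ± 21.7), against 2459 ± 116 in bone marrow (SD, n = 2 each). In uninjured muscle the smallest p-values were those of Atf3 (4.34-fold) and Ets2 (4.08-fold), each higher than in bone marrow.

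Target lists were drawn up from general knowledge of each factor, overlap with one another and with the cell markers, and are described by counts and medians alone. The shares of all probe sets to set beside the counts below were 12.1% higher and 13.9% lower in injured, and 13.9% and 18.5% in transplanted injured, against uninjured muscle. Against bone marrow they were 15.5% and 15.5% in injured, 15.1% and 17.4% in transplanted injured, and 4.83% and 1.25% in uninjured muscle. Of 18 tested genes known as PU.1 targets, 14 were higher in injured and 15 in transplanted injured against uninjured muscle, and 0 were lower in either. Their list medians were 1.80 and 1.74 on the log2 scale, beside -0.14 and -0.19 over all probe sets. Fcer1g, the signalling chain of Fc receptors, had 9973 ± 207 in transplanted injured and 8398 ± 264 in injured muscle, against 1328 ± 305 in uninjured muscle (SD, n = 2 each). Itgam, which encodes CD11b, was at least 27.4-fold higher in transplanted injured and at least 14-fold higher in injured than in uninjured muscle. Against bone marrow 14 of 18 were higher in each injured group and 6 in uninjured muscle, where Csf1r, the receptor of macrophage colony-stimulating factor, was 3.91-fold higher. The counts against uninjured muscle ran from 8 to 17 in injured and from 10 to 17 in transplanted injured muscle when 1 array was left out, with 8 without either injured array. In uninjured muscle against bone marrow fewer were higher without bone marrow array 2, and some were lower without uninjured array 2. Over all probe sets the calls moved the same way in both fits. Spi1 itself was not called in these comparisons.

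The 19 tested C/EBP targets split into genes that rose and genes that fell. In injured against uninjured muscle 6 were higher and 10 lower, and in transplanted injured muscle 6 were higher and 12 lower, with list medians of -3.72 and -2.91. The genes with the smallest p among the falls were granule proteins of neutrophil precursors: Ngp was at least 151-fold lower in each injured group than in uninjured muscle, and Lcn2 at least 28.9-fold lower in injured muscle. Among the rises were Il1rn, the antagonist of the interleukin-1 receptor (2072 ± 77.8 in transplanted injured and 1456 ± 146 in injured muscle, against 27.9 ± 23.3 in uninjured muscle, SD, n = 2 each), and Ptgs2, the inducible cyclooxygenase (6.45-fold and 7.46-fold in the same order). Against bone marrow Arg1, arginase of alternatively activated macrophages, was 57-fold higher in transplanted injured and 41.4-fold higher in injured muscle, while Ngp was at least 214-fold lower in each. The higher count fell to 2 and 3 in injured against uninjured muscle without injured array 1 and array 2, to 3 in transplanted injured muscle without either transplanted array, and to 5 in injured muscle against bone marrow without injured array 2. In uninjured muscle 4 targets were higher and 1 lower than in bone marrow, with 0 lower without bone marrow array 1 and 2 lower without either uninjured array or injured array 1. Among them Il6 was at least 11.5-fold and Cd14 12.3-fold higher, and Lcn2 fell to 1222 ± 402 in uninjured muscle, against 4973 ± 859 in bone marrow (SD, n = 2 each).

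Neutrophil markers moved with the C/EBP target list, and the lists share 11 genes. Summed over 12 of 12 genes they had 1944 and 1757 in transplanted injured muscle, 1269 and 1332 in injured muscle, 32500 and 18300 in uninjured muscle, and 44400 and 55540 in bone marrow. In transplanted injured muscle 6 of the 12 and in injured muscle 7 of the 12 were under the filter value on both arrays, and 0 were in uninjured muscle and bone marrow. Mpo, one of the 12, had 34.3 and 40.5 in transplanted injured muscle and 10.5 and 32.1 in injured muscle, against 2390 and 1210 in uninjured muscle and 2850 and 5240 in bone marrow. In each injured group 10 of the 12 were lower than in uninjured muscle and 1 was higher. The gene that was higher is Csf3r, the receptor of granulocyte colony-stimulating factor, with 781 and 734 in transplanted injured and 775 and 762 in injured muscle, against 106 and 428 in uninjured muscle and 554 and 505 in bone marrow (adjusted limma p 0.04 in transplanted injured and 0.0454 in injured against uninjured muscle). Both Csf3r calls were lost without any 1 injured, transplanted or bone marrow array.

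Of 16 tested LXR targets, 6 were higher and 1 lower in injured, and 5 higher and 2 lower in transplanted injured against uninjured muscle, with medians of 0.87 and 0.61. The lower counts were not above the shares of 13.9% and 18.5% over all probe sets. Npc1, which moves cholesterol out of lysosomes, was 5.09-fold higher in transplanted injured and 4.83-fold higher in injured muscle. Mertk, a receptor for apoptotic cells, was 2.97-fold and 4.37-fold higher in the same order. Scd1, a fatty acid desaturase, fell to 50.7 ± 3.39 in transplanted injured and 121 ± 27.7 in injured muscle, against 1435 ± 150 in uninjured muscle (SD, n = 2 each). When 1 array was left out the higher counts ran from 0 to 8 in transplanted injured and from 1 to 8 in injured muscle: 1 without either injured array, 1 and 0 without transplanted array 1 and array 2, and 8 in transplanted injured muscle without uninjured array 2. Against bone marrow 7 were higher in each injured group, with 4 lower in transplanted injured and 2 in injured muscle, and 3 were higher and 0 lower in uninjured muscle, among them Cd36 (29.6-fold) and Lpl (13.7-fold). Without uninjured array 1 that count was 6, and without uninjured array 2 the lower count was 3.

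Of 20 tested genes known as targets of interferon regulatory factors, 8 were higher and 1 lower in injured, and 7 higher and 3 lower in transplanted injured against uninjured muscle. List medians were 0.90 and 0.68 on the log2 scale, beside -0.14 and -0.19 over all probe sets. The lower counts were not above the shares of 13.9% and 18.5% over all probe sets. Il1b had 8148 ± 34.4 in transplanted injured and 10620 ± 293 in injured muscle, against 2251 ± 276 in uninjured muscle (SD, n = 2 each). Ifit3, an interferon-induced gene, was 6.75-fold higher in transplanted injured and 5.70-fold higher in injured muscle. Ccl5, a chemokine of T cells and natural killer cells, fell to 367.8 ± 3.31 in transplanted injured and 299.8 ± 44.8 in injured muscle, against 1485 ± 421 in uninjured muscle (SD, n = 2 each). Against bone marrow 10 were higher and 1, Ccl5, lower in each injured group, and 4 were higher and 0 lower in uninjured muscle. Between the injured groups 1 gene passed: H2-Aa, a chain of MHC class II measured by a probe set of a kind that can also bind related transcripts, had 5458 ± 362 in transplanted and 18460 ± 1874 in untransplanted injured muscle (SD, n = 2 each, log2 -1.76, adjusted limma p 0.0291). That count was 0 without any 1 injured, transplanted or bone marrow array, and 3 without either uninjured array.

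Of 10 tested Klf4 targets, 6 were higher and 1 lower in uninjured muscle, 8 higher in injured and 7 higher in transplanted injured muscle than in bone marrow. Retnla, a marker of alternative activation, had 10170 ± 900 in uninjured muscle, against 109 ± 9.05 in bone marrow (SD, n = 2 each), a 90-fold difference. It fell to 100.2 ± 3.45 in transplanted injured and 325.4 ± 26.7 in injured muscle, below uninjured muscle in both (adjusted limma p 0.000135 and 0.000162). In all, 3 of the 10 were higher in injured and 5 in transplanted injured against uninjured muscle, with 1 lower in each, where 12.1% and 13.9% of all probe sets were higher. These counts fell to 1 in injured muscle without injured array 1, to 2 in transplanted injured muscle without either transplanted array, and to 3 there without either injured array.

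**Figure D4:**
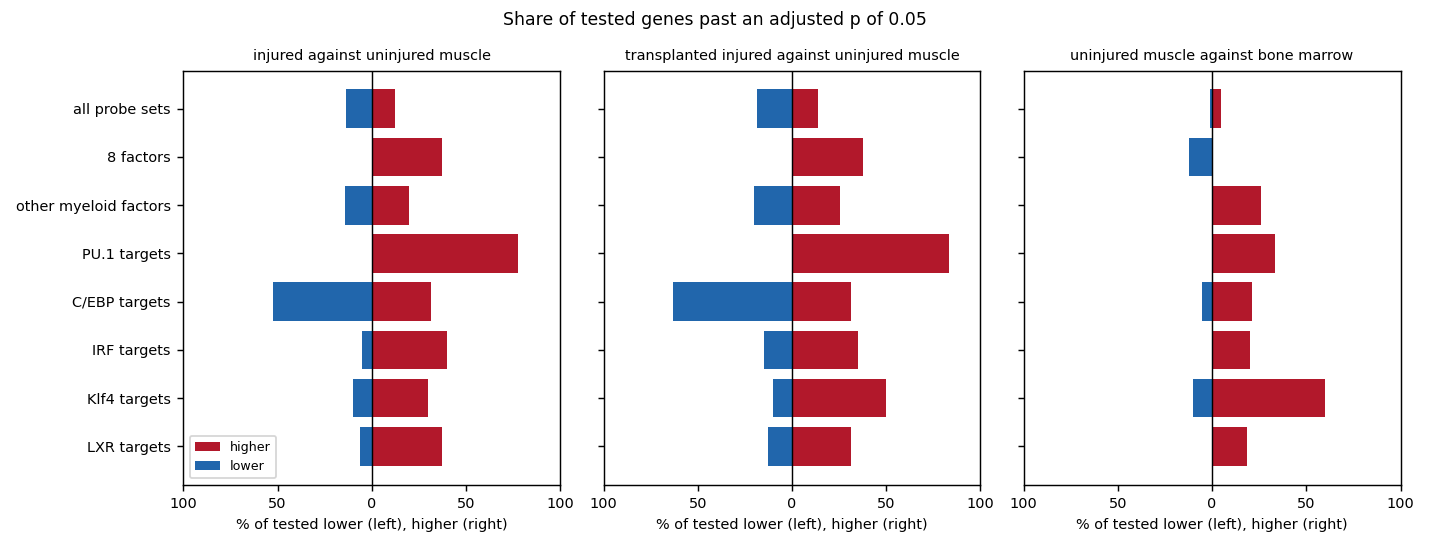
Bars give the percent of tested genes, on the x axis, that passed an adjusted p of 0.05 higher (right, red) or lower (left, blue), for all probe sets, the 8 factors and 6 lists, in 3 comparisons. PU.1 targets have no lower bar in any panel, C/EBP targets have the longest lower bars after injury, and Klf4 targets have a longer higher than lower bar in all 3 panels. The bar of the 8 factors in injured against uninjured muscle includes Maf.

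The markers of macrophages were highest in both injured groups, as Spi1, Cebpa and Nr1h3 were, and lowest in bone marrow, where Irf8 was highest on its leading probe set. The PU.1 target list holds 7 of them. Summed over 12 of 12 genes they had 78910 and 73340 in transplanted injured muscle, 78080 and 81360 in injured muscle, 23100 and 31060 in uninjured muscle, and 9725 and 8178 in bone marrow. In the injured groups 0 of the 12 were under the filter value on both arrays, and 1 was in uninjured muscle and 2 were in bone marrow. Adgre1, which encodes F4/80, had 6560 and 7630 in transplanted injured and 5880 and 6230 in injured muscle, against 1910 and 2020 in uninjured muscle and 457 and 198 in bone marrow. Against uninjured muscle 11 of the 12 were higher in injured muscle and 10 in transplanted injured muscle, with 1 lower in each. The lower one is Cd163, a scavenger receptor of resident macrophages, with 160 and 169 in transplanted injured and 553 and 494 in injured muscle, against 1300 and 1530 in uninjured muscle and 40.9 and 35.3 in bone marrow (adjusted limma p 0.000692 in transplanted injured and 0.0123 in injured against uninjured muscle). Without either injured array 6 of the 12 were higher in injured muscle and 0 lower. Progenitor markers, 7 measured of 8, ran the other way, with 147.3 and 145.7 in transplanted injured, 403.6 and 364 in injured, and 1800 and 1588 in uninjured muscle, against 4153 and 2991 in bone marrow. The part of these markers in the differences of the factors was not tested.

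Markers of cells without CD45 were present too. Fibroblast markers, 8 of 8 measured, summed to 4409 and 4712 in transplanted injured, 23140 and 23390 in injured, and 33190 and 9197 in uninjured muscle, against 145.4 and 310.1 in bone marrow. Endothelial markers, 9 of 9 measured, summed highest in uninjured muscle (11770 and 9291), against 732.5 and 822.1 in bone marrow. They summed to 871.4 and 834.5 in transplanted injured and 1024 and 970.5 in injured muscle. Fabp4 was the brightest of them in uninjured muscle (6520 and 4100). Pecam1 did not follow the sum, with 32.5 and 61.2 there, against 70.7 and 59 in bone marrow. The muscle fibre sum was 205.6 and 196.3 in transplanted injured, 981.8 and 882.6 in injured, and 3444 and 6174 in uninjured muscle, against 136.9 and 197.1 in bone marrow. The T cell sum lay between 181.4 and 355.6 on the injured arrays, at 2405 and 1118 in uninjured muscle, and at 3464 and 2925 in bone marrow.

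**Figure D5:**
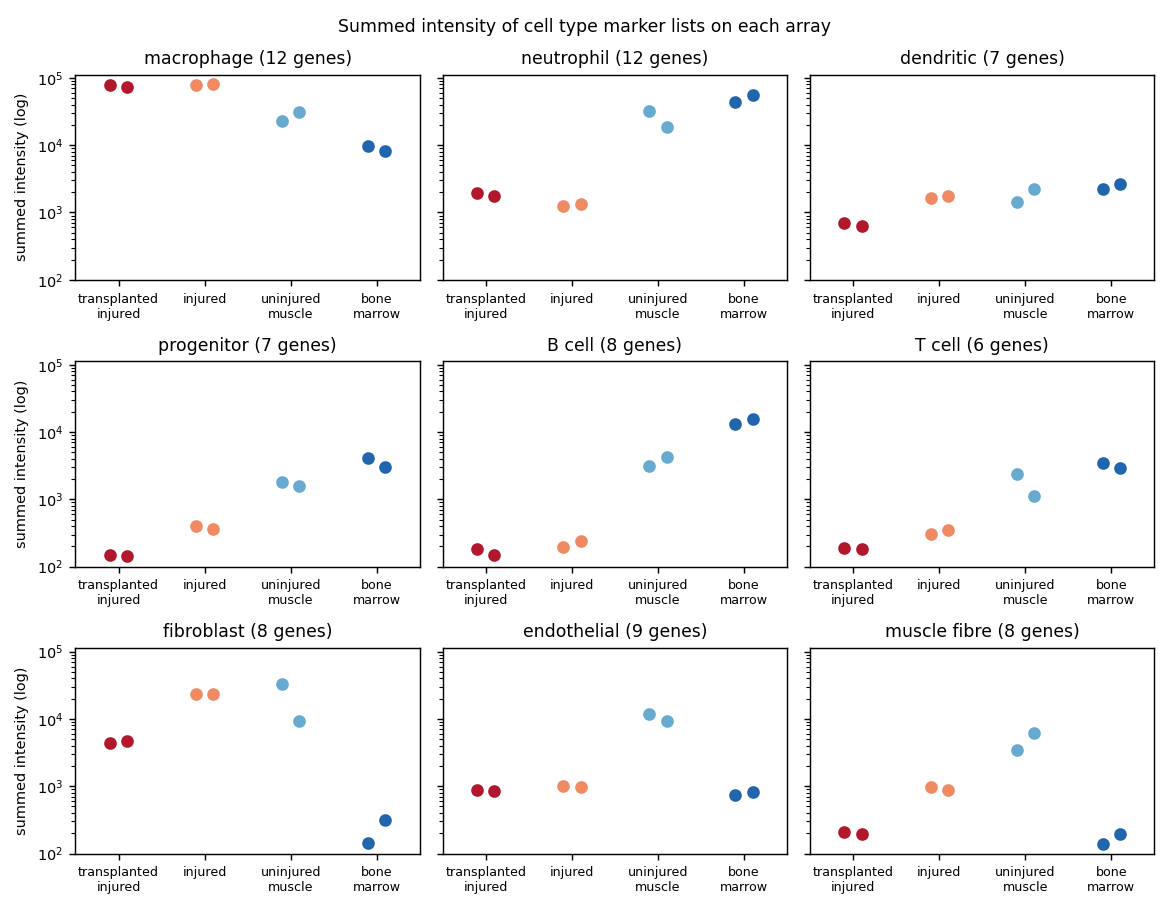
Each panel plots on a log axis the summed intensity of 1 list of cell type markers on the 2 arrays of each group. Macrophage sums are highest in both injured groups, neutrophil, progenitor, B cell and T cell sums are highest in bone marrow, and fibroblast, endothelial and muscle fibre sums are high in uninjured muscle.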

How the data were processed

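Expression was measured on 8 Affymetrix Mouse430A arrays, 1 per sample, in 4 groups of 2. A one-cycle method labelled 1 µg of total RNA, per the labels' protocols, and the submitters' processing notes name GCOS without a version. The deposited values are linear intensity values, 1 per probe set, which in the deposited intensity table are scaled to a trimmed mean (2% off each end) of 250.09 to 250.12 per array. How probes were summarised and what build the probes were designed on is not given in the sources used here. Median intensity was 56.3 to 75.7 per array. Groups were taken from the sample titles.

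Values under 1 were set to 1 and log2(intensity + 4) was computed. Tested were the 16289 of 22626 probe sets outside the 64 controls with at least 2 of 8 arrays at or above 38.4, the 40th percentile. The annotation named 20380 with 1 gene, 691 with several and 1555 with none. One mean per group was fitted on all 8 arrays with limma 3.58.1 in R 4.3.3 (4 residual degrees of freedom, median prior 4.07, intensity trend, two-sided, Benjamini-Hochberg within each of 6 comparisons, threshold 0.05). Precision is limited by the number of arrays, with a median SE of 0.45 for a log2 difference. The code was tested on simulated data. Nothing says that the 2 arrays of a group are separate animals, so p-values reflect the spread between arrays alone, and that spread may be technical.

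Folds are on the log2(intensity + 4) scale, which understates changes of dim genes. Where a lower group had both its arrays under 38.4, the fold was set against that value and written as "at least"; it is the filter value and no detection limit. Genes named were the 8 factors, the 2 nearest profiles of each, and up to 2 genes of each list with the smallest p in each direction and comparison, with marker genes given by level. One further gene list is not reported here. The factors, lists and settings were chosen with earlier results of these data known. Alternatives covered scaling, pseudocount, filter, trend, array weights, probe set choice, the arrays fitted, a replicate block and each array left out.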

Additional observations from a re-analysis of the deposited data

How the results depend on the processing

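Over 48 values, 8 factors in 6 comparisons, and up to 21 alternatives each, 1002 values were computed: 867 kept direction and call, 42 kept direction and lost the call, 64 kept direction and gained one, 0 called values changed sign, and 29 uncalled values changed sign. The alternatives left the direction and call of Nr1h3 against bone marrow in both injured groups, and of Cebpb in transplanted injured muscle against bone marrow, as reported. The cause of the other changes was not tested.

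Counts of factors in this section are over all 8, Maf included, although Maf entered the tests only through injured muscle. In injured against uninjured muscle 2 factors were higher (reported 3, Maf included) with a pseudocount of 1, with no filter, with the filter at 111, where Maf was not tested, and with no intensity trend, and 4 with median centring. In injured muscle against bone marrow 4 were higher (reported 3) on the 4 arrays alone and with a pseudocount of 17.1. Larger moves in the number of factors called were as follows. In uninjured muscle against bone marrow, Klf4 was called higher (1 factor, reported 0) with quantile normalization, with a pseudocount of 17.1 and with the filter at 111, and 0 were lower (reported 1) on the 4 arrays alone. With quantile or cyclic loess normalization 1 factor, Klf4, was lower in each injured group than in uninjured muscle (reported 0), and likewise in transplanted injured muscle with the filter at 111. On the 4 arrays compared alone, 1 factor was higher (reported 3) in each injured group against uninjured muscle, 1 (Irf5, reported 0) in transplanted against untransplanted injured muscle, and 5 (reported 3) in transplanted injured muscle against bone marrow. With array weights 5 (reported 3) were higher in each injured group than in bone marrow. With a gene's probe sets averaged, 0 (reported 1) were lower in each injured group than in bone marrow.

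Bone marrow array 1 and uninjured array 1 had the highest Gapdh 3' to 5' ratios. By beta-actin both uninjured arrays were highest (19 and 10.1), against 5.75 and 5.68 in bone marrow. Leaving out bone marrow array 1 and uninjured array 1 was chosen after seeing the data. Calls then rose over all probe sets in every comparison, so changed calls are no result about the factors. The fit rests on 1 array each of uninjured muscle and bone marrow. Among values whose call changed, uninjured muscle differed from bone marrow in log2 by 1.97 for Cebpb and 1.30 for Spi1. The difference was 0.88 for Cebpa and 0.61 for Klf4. Against uninjured muscle Irf8 differed by -0.75 in injured and -0.93 in transplanted injured muscle, and Klf4 by -0.60 in each. Irf5 differed by 0.62 between transplanted and untransplanted injured muscle. Against bone marrow it differed by 0.68 in injured and 1.29 in transplanted injured muscle.

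With 1 array left out in turn, which leaves a lone array assumed to vary like the other groups, higher and lower counts ran from 0 to 2 and from 0 to 2 in uninjured muscle against bone marrow, from 0 to 6 and from 0 to 1 in injured against uninjured muscle, and from 0 to 5 and from 0 to 1 in transplanted injured against uninjured muscle. They were 0 and 0 throughout between the injured groups, from 1 to 6 and 1 throughout in injured muscle against bone marrow, and from 2 to 5 and 1 throughout in transplanted injured muscle against bone marrow. The share of all probe sets called ran from 8.12% to 40.1% over the alternatives in injured against uninjured muscle, from 14.7% to 45.2% in transplanted injured against uninjured muscle, from 1.77% to 19.2% in uninjured muscle against bone marrow, from 0% to 6.91% between the injured groups, from 14.1% to 46% in injured muscle against bone marrow and from 15.9% to 47.4% in transplanted injured muscle against bone marrow.

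Replicate numbers are shared by the groups, and the labels do not say whether they pair the samples. Same-numbered deviations correlated at 0.313 in uninjured muscle against bone marrow and between -0.032 and 0.003 in the other comparisons. In uninjured muscle and in bone marrow, array 1 also had the higher Gapdh 3' to 5' ratio. With a replicate block the counts of factors called were 0 and 1 in uninjured muscle against bone marrow, 3 and 0 in each injured group against uninjured muscle, 4 and 1 in injured and 3 and 1 in transplanted injured muscle against bone marrow, and 0 and 0 between the injured groups. The block added Maf, whose values are a description, in injured muscle against bone marrow (adjusted limma p 0.0477) and changed no other call of a factor. All probe sets called between the injured groups numbered 2 higher and 13 lower, against 4 and 37.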
